A study of Homo sapiens with 6 samples.

Results

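Keratins are the intermediate filament proteins of epithelial cells. The 10 genes described here encode keratins of simple epithelia (KRT7, KRT8, KRT18, KRT19, KRT20), of basal and stress-exposed epithelia (KRT5, KRT14, KRT17), KRT80 and the hair keratin KRT81. They were taken by name from a table of 58174 genes, and each name matched 1 gene. KRT5, KRT7, KRT8, KRT80 and KRT81 are type II keratins, and KRT14, KRT17, KRT18, KRT19 and KRT20 are type I.

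A keratin filament is built from pairs that hold 1 type I and 1 type II chain, so neither type forms filaments alone. KRT8 and KRT18 are the pair of simple epithelia and the keratins of normal hepatocytes, while KRT7 and KRT19 are known as bile duct keratins in liver. KRT5 and KRT14 form the pair of basal cells in stratified epithelia, and KRT17 is known for its appearance in injured or hyperproliferative epithelium.

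RNA was measured in 6 samples of cells labelled Huh-7, an established human hepatocellular carcinoma line, in a study of cisplatin sensitivity. The control group held 3 samples transfected with a negative control (NC), and the mimic group held 3 transfected with miR-27a-3p mimics, synthetic RNAs that imitate the mature microRNA. Both groups received Lipofectamine 3000, were taken after 48 h, and carry no cisplatin label. Whether samples 1 to 3 of a group came from different cultures is not stated. The p-values below therefore reflect variation among the given samples, possibly only technical variation.

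The values are FPKM, fragments scaled to gene length and library total. The gene lengths used are not given, so the order of different genes by FPKM is provisional. Annotated exons total 6881 bases for KRT8, 3130 for KRT17 and 3218 for KRT18. Their transcripts with the longest coding part have 1687, 1651 and 1562 bases. With other lengths the order of these genes could differ. Between samples the values also depend on how each library is scaled, which is taken up below. Read numbers are not given. The products of FPKM and exon length had a commonest value in every sample. Taking that value as 1 fragment implies 17000000 to 21100000 fragments per control sample and 25100000 to 31000000 per mimic sample. Far smaller products also occurred, as for the pseudogene KRT18P41 at 0.000324 FPKM in mimic sample 3. The commonest value is therefore not a smallest step, and the fragment numbers are approximate. Mitochondrial genes held 16.9% to 32.8% of summed FPKM in controls and 14.6% to 38.9% with the mimic. A mature microRNA is not captured by mRNA libraries, so the transfection could not be checked on it.

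The liver identity in the label was not seen in these data. Of 20 hepatocyte markers, 18 stayed below 1 FPKM in every sample and 5 were listed at 0 throughout, among them APOB and TTR. ALB, which encodes albumin, was listed at 0.011 FPKM in control sample 2 and at 0 in the other samples. The fetal liver gene AFP reached at most 0.0237 FPKM. The summed level of the list was 40.7 to 73.6 FPKM in controls, against 86.4 to 115 with the mimic, nearly all of it VTN, the gene of vitronectin. The cells are therefore called cells labelled Huh-7 below.

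Markers of other epithelia were mixed. Of 10 basal epidermal markers, 5 passed the filter described below, led by SFN, which encodes the 14-3-3 sigma protein that binds KRT17, at 202.1 to 219.4 FPKM in controls, against 336 to 347.1 with the mimic. The desmosomal cadherin gene DSG3 and DSC3 were at 0 in all samples, and TP63, the master regulator of basal cells, was at 0.41 to 0.482 in controls, against 0.057 to 0.0803 with the mimic. That list summed to 254 to 305 FPKM in controls, against 441 to 460 with the mimic. Of 12 cholangiocyte markers, 7 stayed below 1 FPKM, MUC1 was the most abundant at 20.9 to 32.4, and the sums were 35.0 to 43.7 and 35.9 to 46.8. Of 12 mesenchymal markers, 7 stayed below 1 FPKM in every sample, and the list summed to 384 to 448 FPKM in controls, against 404 to 437 with the mimic. Most of that was VIM, the mesenchymal filament gene vimentin, at 340.1 to 408.3 FPKM in controls, against 374.5 to 405 with the mimic. COL1A1 had a mean of 17.4 in controls, against 7.99 with the mimic, ACTA2 18.2 against 11.6 and TAGLN 5.77 against 8.87. Leukocyte markers summed to at most 1.74 FPKM and endothelial markers to at most 3.03. The part of any other cell type in the keratin values was not tested, and in bulk RNA fewer cells of a type and less RNA per cell cannot be told apart.

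Because the mimic carries the sequence of miR-27a-3p, the keratin transcripts were searched for its seed match. The mature RNA (RefSeq, GRCh38.p14, chromosome 19 from 13836447 to 13836467, minus strand) is shown first, with seed bases 2 to 8 in capitals. The matches found in KRT8 follow, with the bases that pair with the seed in capitals.
hsa-miR-27a-3p: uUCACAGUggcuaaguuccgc
KRT8 match at UTR base 741: cctcagtggaacACTGTGAtttggaca
KRT8 match at UTR base 860: cattcagcacctACTGTGAgccaggcc

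Both matches are 7mers (ACTGTGA) without the adjacent A of an 8mer, and both lie in the 2190-base 3' UTR of 1 alternative KRT8 transcript in GENCODE 29. The transcript with the longest KRT8 coding part has a 3' UTR of 131 bases and no match. The other 9 keratins, searched in their longest annotated 3' UTR (126 bases for KRT19 to 2527 for KRT80), held no 8mer, 7mer-m8 (ACTGTGA) or 7mer-A1 (CTGTGAA). Among 11527 tested genes with a 3' UTR, 31.6% held at least 1 such match, with a median UTR length of 1596 bases. A match is a description of letters and not a shown site of action. The RefSeq promoter windows, each of 300 bases around a gene's start, covered KRT5, KRT8 and KRT20. The KRT8 window (52926420 to 52926719) belongs to a RefSeq start inside the GENCODE gene interval and not at its outer 5' end given below. The KRT5 window (52520345 to 52520644) also lies inside its gene interval, which ends at 52520687. Which starts these cells use was not tested. None of the 3 windows held the AP-1 word TGACTCA on either strand, found in 4.95% of 35116 windows, the GC box GGGCGG (45%) or TATAAA (11.5%). Only exact words were searched, so their absence does not show that a promoter lacks such an element.

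KRT17 had the highest FPKM of the 10 keratins in the controls, followed by KRT8, KRT18 and KRT7, and then by KRT80 and KRT19. Control samples 1, 2 and 3 held KRT17 at 501.7, 429.5 and 428.7 FPKM (453 ± 41.9, SD, n = 3). It lies on chromosome 17 from 41619437 to 41624842 (hg38, minus strand). In every control sample the FPKM of KRT17 exceeded that of any other member.

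KRT8, KRT18 and KRT7 followed at nearly equal FPKM. KRT8 was at 255.6, 229.5 and 250.7 FPKM (245 ± 13.9), KRT18 at 253.2, 243.1 and 209.9 (235 ± 22.7) and KRT7 at 274.5, 214.1 and 199.7 (229 ± 39.7). These 3 ranges overlapped, so their order is not resolved.

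KRT8 and KRT18 lie head to head on chromosome 12. KRT8 spans 52897187 to 52949954 on the minus strand, and KRT18, the only type I member outside chromosome 17, spans 52948871 to 52952901 on the plus strand. The outer 5' ends of the GENCODE intervals overlap by 1084 bases on opposite strands, whereas the RefSeq start window of KRT8 lies outside the overlap. The strand setting of the counting is not given, so reads from the overlap cannot be assigned with certainty.

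Lower still were KRT80, a type II keratin of many epithelia, and KRT19, a type I keratin that lacks most of the tail domain. KRT80 was at 40.1, 39.5 and 38 FPKM (39.2 ± 1.1) and KRT19 at 27.2, 28.6 and 19.4 (25.1 ± 4.93), without overlap between them. KRT80 (chromosome 12, 52168996 to 52192000) lies in the same type II cluster as KRT7 (52232520 to 52252186) and KRT81 (52285913 to 52291534). KRT19 (41523617 to 41528308) lies with KRT14 (41582279 to 41586921) and KRT17 in the type I cluster.

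The remaining 4 were near the floor. KRT81 was at 0.987, 0.999 and 1.14 FPKM in controls (1.04 ± 0.0858), KRT14 at 0.255, 0.373 and 0.27 (0.299 ± 0.0641), and KRT20, a keratin of intestinal and urothelial cells, at 0.142, 0.119 and 0.284 (0.182 ± 0.0892). KRT14 and KRT20 overlapped in the controls. KRT5, the basal partner of KRT14, was listed at 0.0187 FPKM in control sample 2 and at 0 in the others. By the implied fragment value, KRT81 rested on about 36.8 to 40.7 fragments in a control sample, KRT14 on about 10.4 to 18 and KRT20 on about 4.7 to 8.9.

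**Figure D1:**
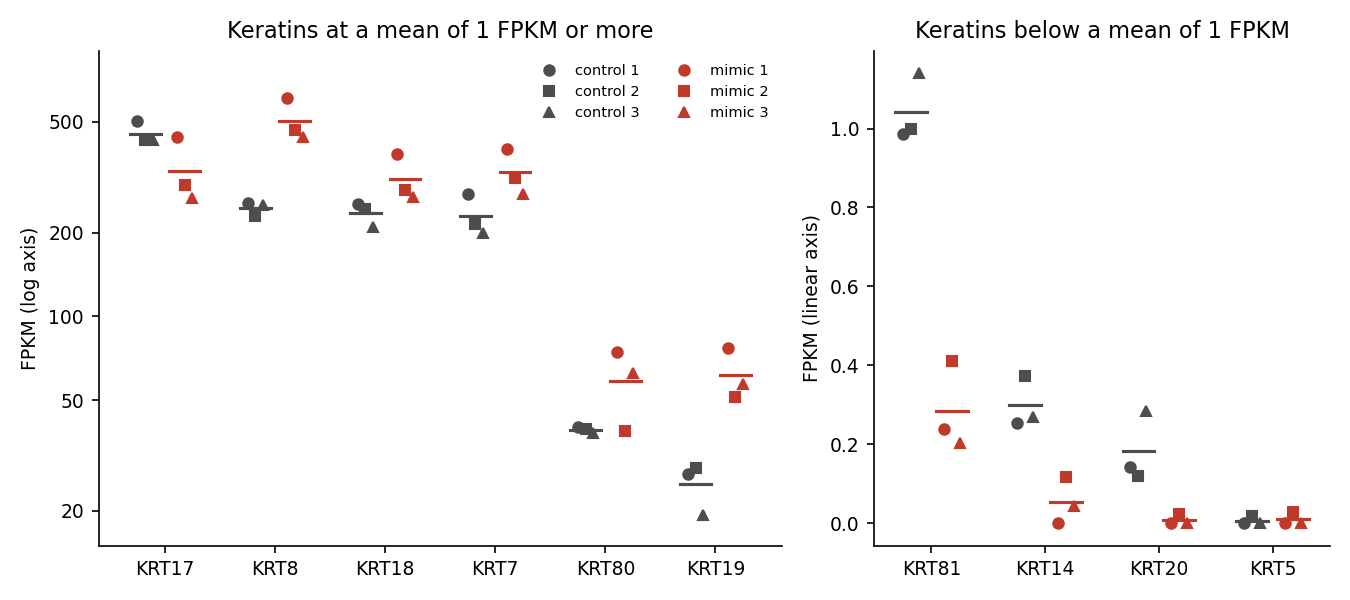
FPKM of the 10 keratins in each control (grey) and mimic (red) sample, with the group mean as a line; the left panel has a log axis and the right panel a linear axis that includes 0. KRT7, KRT8, KRT18 and KRT19 were higher in all 3 mimic samples than in any control, as were 16.2% of all tested genes. KRT81, KRT14 and KRT20 were lower. For genes as low as the latter, the share of all genes without overlap was not computed.

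In mimic samples KRT8 and KRT19 rose. KRT8 went to 606.6, 467.9 and 441.6 FPKM in mimic samples 1, 2 and 3 (505 ± 88.6, n = 3), 2.06 times the control mean. Every mimic sample lay well above the highest control, at 255.6. On the log2(FPKM + 0.5) scale the difference was 1.03 (SE 0.17, adjusted p = 0.00139 by limma with Benjamini-Hochberg adjustment over all tested genes).

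KRT19 went to 76.8, 51.2 and 57.3 FPKM in mimic samples 1, 2 and 3 (61.8 ± 13.4), 2.47 times the control mean. The lowest mimic sample exceeded the highest control, at 28.6. Its log2 fold change was 1.28 (SE 0.20, adjusted p = 0.0012 by limma). Both calls held in all 18 alternative settings, with log2 fold changes of 0.89 to 1.35 for KRT8 and 1.11 to 1.6 for KRT19.

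KRT7 and KRT18 were above the controls in every mimic sample, but their differences did not pass the test on the deposited scale. KRT7 was at 397.8, 313.4 and 276.2 FPKM in mimic samples (329 ± 62.3; log2 fold change 0.52, SE 0.19, adjusted p = 0.0528 by limma). The lowest mimic sample, at 276.2, lay just above the highest control, at 274.5. Leaving out control sample 1 (adjusted p = 0.0413) or mimic sample 3 (0.0371) brought KRT7 past the threshold, as did leaving out sample 1 in each group (0.0414). Leaving out control sample 2 or 3, or mimic sample 1 or 2, gave adjusted p from 0.104 to 0.152, and leaving out sample 3 in each group gave 0.0948. KRT18, the partner of KRT8, was at 382.5, 283.3 and 268.3 FPKM (311 ± 62.1; 0.39, SE 0.18, adjusted p = 0.102 by limma). The gap from the highest control to the lowest mimic sample ran from 253.2 to 268.3.

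KRT80 was uneven among mimic samples. It was at 74.2, 38.8 and 62.7 FPKM (58.5 ± 18; log2 fold change 0.52, SE 0.23, adjusted p = 0.084 by limma). Mimic sample 2 lay within the control range, and without it the log2 fold change was 0.79 (adjusted p = 0.00672 by limma). Without mimic sample 1 it was 0.33 (adjusted p = 0.206), and KRT80 was not called with any other single sample left out. KRT17, the keratin with the highest FPKM in controls, was at 439.9, 296.3 and 265.5 FPKM (334 ± 93.1, log2 fold change -0.47, SE 0.21, adjusted p = 0.0935 by limma). Mimic sample 1 fell within the control range and the other mimic samples below it. Without mimic sample 1 the log2 fold change was -0.69 (adjusted p = 0.00539).

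These values have to be read against all genes. Of the 14439 genes whose mean reached 1 FPKM, 12.0% were called higher and 39.6% lower, and their median log2 fold change was -0.29. Of the 6 keratins that passed this filter, 2 were called higher and 0 lower by limma. At an unadjusted p under 0.05 these were 4 and 0, for which the share of all genes was not computed. The median log2 fold change of the 6 keratins was 0.52. All mimic samples lay above all controls in 16.2% of tested genes, and in KRT7, KRT8, KRT18 and KRT19. They lay below in 44.3% of tested genes and in 0 of the 6 keratins.

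Median-of-ratios scaling, which sets the typical gene to no change, moved the median of all genes to 0.01. On that scale KRT8 (1.35), KRT19 (1.60), KRT7 (0.84), KRT80 (0.84) and KRT18 (0.71) were called higher, with adjusted p from 0.000368 to 0.0202 by limma, against 26.9% of all genes higher and 27.4% lower. KRT17 was at -0.15 (adjusted p = 0.509). Quantile normalization called KRT7, KRT8, KRT18 and KRT19 higher and KRT17 lower (-0.52, adjusted p = 0.0176), against 24.8% and 22.8% of all genes.

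The mitochondrial share varied inside both groups, and sample 1, where it was lowest, had the highest KRT7, KRT8, KRT17 and KRT18 of its group. After mitochondrial genes were removed from each library's total, KRT7 (adjusted p = 0.0119 by limma) and KRT18 (0.0215) were called higher beside KRT8 and KRT19, and KRT17 (0.0381) was called lower. Of all tested genes, 14.4% were then called higher and 39.5% lower.

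**Figure D2:**
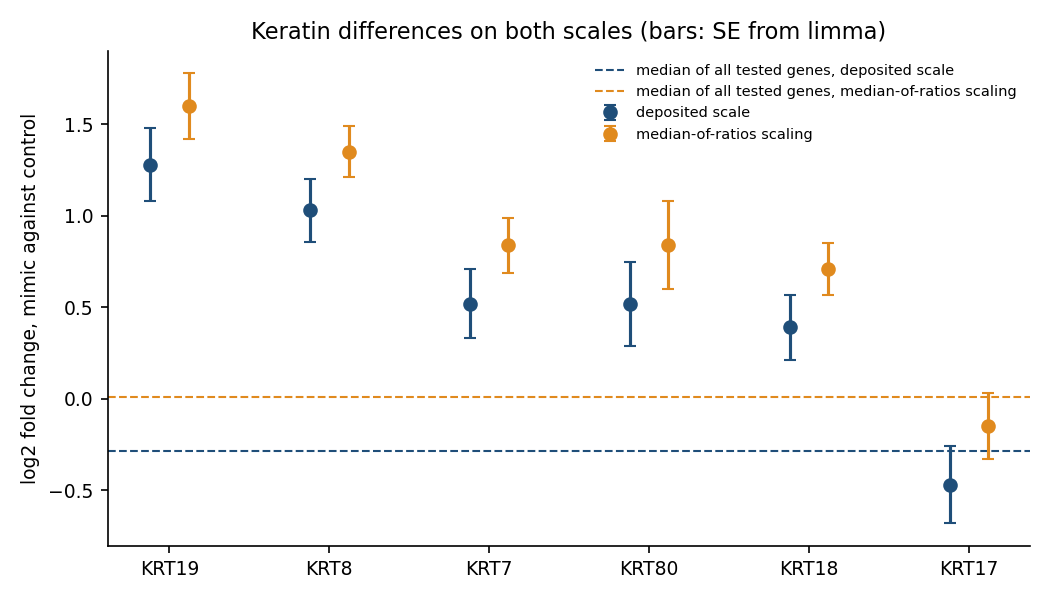
Log2 fold changes of the 6 tested keratins, mimic against control, with SE from limma, on the deposited scale (blue) and after median-of-ratios scaling (orange); dashed lines mark the medians of all tested genes, -0.29 and 0.01. KRT19 and KRT8 lie farthest above both lines, and KRT17 lies closest to them.

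Shares of the summed keratin signal do not change when a whole library is multiplied by 1 factor. The 10 keratins summed to 1148 to 1354 FPKM in controls, against 1372 to 1978 with the mimic, and they held 97.0% to 98.2% of the FPKM of all 55 keratin genes. KRT17 made up 37.1%, 36.2% and 37.3% of the sum of controls 1, 2 and 3, against 22.2%, 20.4% and 19.4% with the mimic. KRT8 took 18.9%, 19.4% and 21.8% in controls, against 30.7%, 32.2% and 32.2% with the mimic. By FPKM, KRT8 was thus the highest keratin in every mimic sample and KRT17 in every control. Which of them ranks first depends on the gene lengths used, whereas the opposite shifts of their shares were seen at fixed lengths.

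KRT19 moved from 2.04% ± 0.361 to 3.86% ± 0.325 of the sum. The share of KRT18 was 19.2% ± 1.17 in controls and 19.5% ± 0.153 in mimic samples, and that of KRT7 was 18.6% ± 1.51 and 20.6% ± 0.866. Type II members together held 0.73, 0.69 and 0.743 times the FPKM of type I members in control samples 1, 2 and 3. In mimic samples that ratio was 1.2, 1.3 and 1.32. The summed level of type I members was 714 ± 62.4 FPKM in controls and 707 ± 167 in mimic samples, while type II members went from 515 ± 48.9 to 894 ± 162. These shares and sums depend on the gene lengths used, were computed after the values were seen and are given without a test.

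**Figure D3:**
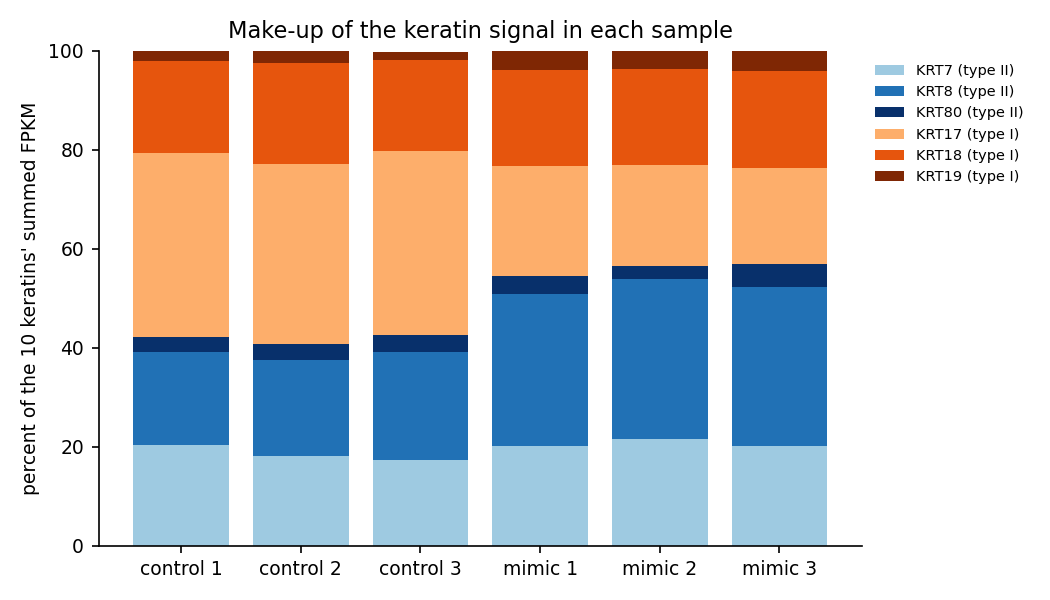
Share of the summed FPKM of the 10 keratins held by each of the 6 abundant ones, as stacked bars per sample on a linear axis from 0, with type II members in blue and type I members in orange. KRT8 widens and KRT17 narrows in all 3 mimic samples.

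Ratios between single keratins were compared within samples. With 3 samples against 3 the two-sided exact permutation test cannot go below p = 0.1, so no ratio could pass. KRT8 to KRT18, which form a pair in the filament, stood at 1.01, 0.944 and 1.19 in controls, against 1.59, 1.65 and 1.65 with the mimic. The log2 difference was 0.64 (exact p = 0.1, adjusted 0.12 over 6 ratios). All mimic samples lay above all controls. The share of all gene pairs whose ratios separate the groups was not computed. Of single tested genes, mimic samples lay wholly above controls in 16.2% and wholly below in 44.3%. Every ratio except KRT19 to KRT18 contains KRT8, so the ratios are not independent of each other.

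KRT19 to KRT18 was 0.107, 0.118 and 0.0926 in controls, against 0.201, 0.181 and 0.214 with the mimic (log2 difference 0.91, exact p = 0.1). KRT7 to KRT8 was 1.07, 0.933 and 0.796 in controls, against 0.656, 0.67 and 0.625 with the mimic (-0.51, exact p = 0.1). KRT80 to KRT8 also separated the groups (-0.50, exact p = 0.1), and its difference was -0.28 without mimic sample 2. KRT8 to KRT19 did not, at 8.03 to 12.9 in controls, against 7.7 to 9.14 with the mimic (-0.27, exact p = 0.2). That difference was -0.08 without control sample 3 and -0.42 without control sample 2. The ratio between the keratins that rose thus overlapped between groups.

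**Figure D4:**
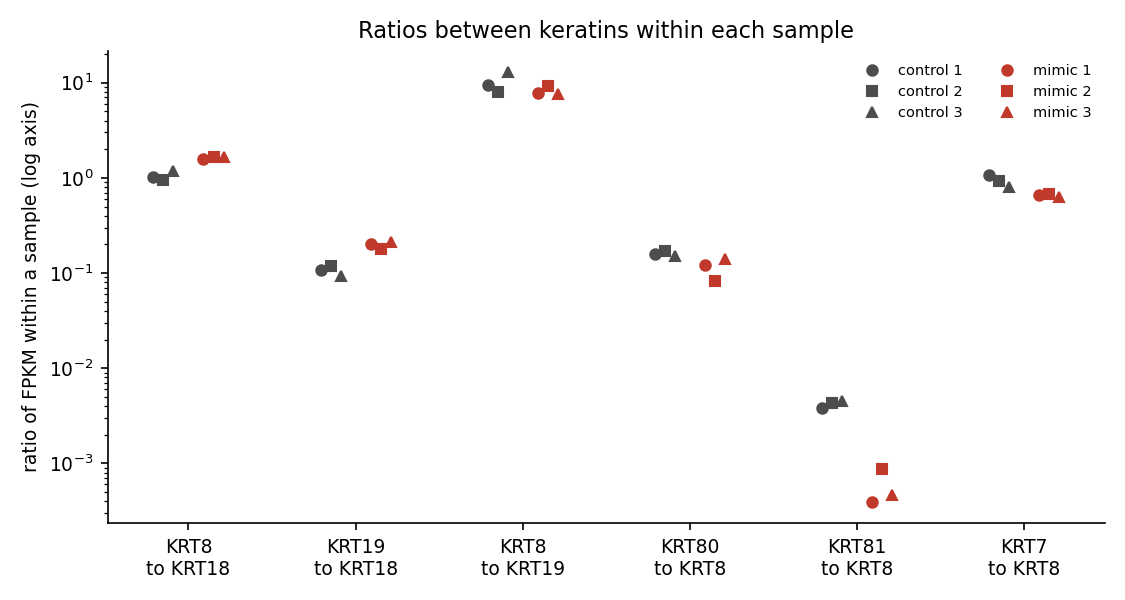
Ratio of 2 keratins' FPKM within each sample on a log axis, controls in grey and mimic samples in red. The groups separate for every ratio shown except KRT8 to KRT19. The share of all gene pairs that separate was not computed.

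The 4 keratins near the floor were not tested under the filter. KRT81 was at 0.239, 0.41 and 0.204 FPKM in mimic samples (0.285 ± 0.11), all below the lowest control, at 0.987. KRT14 was at 0, 0.118 and 0.0427 and KRT20 at 0, 0.0225 and 0, also below their lowest controls. The share of all genes this low whose groups did not overlap was not computed. Over all genes, 15109 to 15494 reached 1 FPKM in a control sample, against 13007 to 13250 in a mimic sample. Genes listed at 0 numbered 28467 to 29119 in controls, against 31848 to 32523 with the mimic. KRT5 was listed at 0.0285 in mimic sample 2 and at 0 in the other mimic samples.

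With no filter on low values, KRT81 (log2 fold change -0.98, adjusted p = 0.00446), KRT14 (-0.53, adjusted p = 0.0201) and KRT20 (-0.42, adjusted p = 0.0309) were called lower by limma, against 24.5% of the 35796 genes then tested, of which 4.27% were called higher. The pseudocount of 0.5 exceeds the levels of KRT14 and KRT20, so these fold changes understate the ratios of the levels. KRT81 to KRT8 was 0.00386 to 0.00455 in controls, against 0.000395 to 0.000877 with the mimic (log2 difference -2.97, exact p = 0.1).

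Some keratin values rest on sequence that other genes share. Of the 50-base windows in the longest coding transcript, 44.6% for KRT81, 41.3% for KRT8, 31.8% for KRT18, 23.8% for KRT14 and 16% for KRT17 also occur in transcripts of other genes. For KRT81 these are mainly KRT86, a neighbouring hair keratin gene (38.4%), and for KRT8 the processed pseudogene KRT8P3 (24.1%). The share was at most 3.99% for KRT5, KRT7, KRT19, KRT20 and KRT80. KRT86, which did not pass the filter, was at 1.57, 1 and 1.22 FPKM in controls, against 0.674, 0.754 and 0.414 with the mimic.

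The 50 listed KRT8 pseudogenes together held 4.77% to 6.32% of the KRT8 level in controls and 1.74% to 1.83% in mimic samples. KRT8P12 fell, at a mean of 7.13 FPKM in controls against 4.82 with the mimic (adjusted p = 0.0101 by limma, log2 fold change -0.52, SE 0.13). KRT8P33 fell too, at 3.19 against 1.56 (adjusted p = 0.00451, -0.85, SE 0.18), while KRT8 rose. KRT8P12 was not called after median-of-ratios scaling (adjusted p = 0.138). KRT8P3 was at 1.28 and 1.76 FPKM and was not called (0.33, adjusted p = 0.221), and was called higher after that scaling (0.57, adjusted p = 0.0328). The 67 KRT18 pseudogenes summed to 3.06 to 3.61 FPKM in controls, against 0.806 to 1.12 with the mimic. Of these, 0 passed the filter, so the difference was not tested, and genes listed at 0 were generally more numerous with the mimic.

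KRT7-AS, an antisense gene (chromosome 12, 52245048 to 52247448, minus strand) that lies wholly within KRT7, was chosen after its values were seen. It was at 27.1, 20.2 and 22.5 FPKM in controls, against 5.41, 5.6 and 4.83 with the mimic (log2 fold change -2.03, SE 0.15, adjusted p = 4.84e-05 by limma). Its direction was opposite to that of KRT7, and without strand information reads of the pair cannot be told apart. The same limit holds for the pseudogene KRT87P, also on the minus strand and named after its values were seen. Its interval overlaps that of KRT7 by 1721 bases. KRT87P had a mean of 1.91 FPKM in controls, against 0.24 with the mimic (log2 fold change -1.67, SE 0.23, adjusted p = 0.000587 by limma).

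Among the other keratins, 21 of type II and 24 of type I, 3 of type I and 0 of type II passed the filter. KRT34, a hair keratin, fell from 5.89 ± 0.938 to 2.94 ± 0.204 FPKM (-0.88, SE 0.16, adjusted p = 0.00205 by limma), and was not called after quantile normalization (adjusted p = 0.0688). KRT10, a keratin of differentiated epidermis, and KRT16, a stress keratin close to KRT17 in sequence, were named after their values were seen. KRT10 was at 23.6 ± 2.64 and 21.6 ± 6.12 FPKM and KRT16 at 4.22 ± 0.549 and 4.97 ± 1.52, and neither was called on the deposited scale. KRT16 was called higher after quantile normalization (adjusted p = 0.0186 by limma). With no filter on low values, 1 other type II keratin was called higher and 1 lower, and 1 other type I keratin higher and 4 lower, against 4.27% and 24.5% of all genes. The type II keratins were KRT4, a keratin of mucosal epithelia, and KRT86. KRT4 was at 0.0233, 0 and 0 FPKM in controls, against 1.31, 0.863 and 0.855 with the mimic (log2 fold change 1.56, adjusted p = 0.00128 by limma), and was named after its values were seen.

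Other intermediate filament genes were called higher in 3 of 7 tested members and lower in 1, against 12.0% and 39.6% of all genes. After median-of-ratios scaling these were 5 and 1, against 26.9% and 27.4%. The median log2 fold change of the list was 0.20, or 0.53 after that scaling, beside -0.29 and 0.01 for all genes. NEFH, a neurofilament gene, rose from 8.64 ± 0.335 to 32.7 ± 1.88 FPKM (1.86, SE 0.12, adjusted p = 3.32e-05 by limma). The nuclear lamin genes LMNB2 (0.82) and LMNB1 (0.71) rose, the latter named after its value was seen, and the muscle filament gene SYNM fell (-0.75), the latter not called after quantile normalization. VIM was not called, at 381 ± 36.1 and 387 ± 16 FPKM.

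Desmosomes anchor keratin filaments at cell contacts through plakin linkers. Of 13 tested members of that list, 4 were called higher and 2 lower (all genes 12.0% and 39.6%), with a median log2 fold change of 0.14 (all genes -0.29). Median-of-ratios scaling gave 7 and 0 (all genes 26.9% and 27.4%) and a median of 0.46 (all genes 0.01). JUP, the gene of plakoglobin, rose from 116.2, 124.4 and 107.9 FPKM to 255.3, 276.8 and 274.5 (1.21, SE 0.13, adjusted p = 0.000219 by limma). PKP3, another plaque protein gene, rose by 0.70 on the log2 scale, as did PLEC (0.54) and PERP (0.48), named after their values were seen. The linker gene DST fell (-0.73), with PKP4 (-0.40), also named afterwards, and neither was called after median-of-ratios scaling. DSP, which encodes desmoplakin, the main linker to keratins, was at 21.1 ± 2.69 and 23.4 ± 2.99 FPKM and was not called on the deposited scale.

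Hemidesmosomes tie keratins to the basement membrane. Of 5 tested members 2 were called higher and 2 lower, beside 12.0% and 39.6% of all genes, so the share lower was near the general one. After median-of-ratios scaling 3 were higher and 1 lower, beside 26.9% and 27.4%. The list medians were 0.16 and 0.47, beside -0.29 and 0.01 for all genes. LAMA3, a laminin chain gene of the basement membrane, fell from 9.61 ± 1.02 to 1.95 ± 0.26 FPKM (-2.04, SE 0.15, adjusted p = 4.9e-05 by limma). LAMB3, the gene of a chain that joins LAMA3 in the same laminin, rose (0.86) and was named after its value was seen. The tetraspanin gene CD151 rose (0.64). The integrin gene ITGA6 fell (-0.63), and was not called after median-of-ratios scaling or quantile normalization.

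Of 14 genes for proteins that bind or modify keratins, 4 were called higher and 3 lower, where 12.0% and 39.6% of all genes were. Median-of-ratios scaling gave 5 and 2, where 26.9% and 27.4% of all genes were called. The list medians were -0.07 and 0.23 (all genes -0.29 and 0.01). The small heat shock protein gene HSPB1 rose from 387.1, 384 and 343.5 FPKM to 910.8, 903.5 and 966.1 (1.32, SE 0.15, adjusted p = 0.000247 by limma). PNN, which encodes pinin, fell (-1.24) and so did FBF1 (-0.89).

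Transcription factors linked to keratin genes were mostly lower, in 12 of 16 tested members with 1 higher, or 10 and 3 after scaling. All genes were at 39.6% lower and 12.0% higher, or 27.4% and 26.9% after median-of-ratios scaling. The list's median log2 fold change was -1.12, or -0.80 after scaling, beside -0.29 and 0.01 for all genes. FOS fell from 490 ± 51.2 to 9.53 ± 2.58 FPKM (log2 fold change -5.64). FOSB (-6.52) and JUN (-2.83) also fell, and all 3 encode AP-1 subunits. The AP-1 genes JUNB, JUND and FOSL1, named after their values were seen, were also called lower on the deposited scale, and FOSL2 was not called. The count of lower members thus rests in part on 1 gene family. The list was drawn up with earlier results of these data known, so the count is a description. EHF, an epithelial ETS factor and the only called rise in this list on the deposited scale, went from 8.79 ± 0.517 to 30.5 ± 7.71 FPKM (1.71, SE 0.18). Epithelial junction genes were called in 2 of 11 tested members, SPINT2 higher (0.83) and TJP3 lower (-0.84), or 4 higher and 1 lower after median-of-ratios scaling. The same all-gene shares of 12.0% and 39.6%, and of 26.9% and 27.4% after scaling, apply here, and the list medians were -0.01 and 0.30. The epithelial markers CDH1 and EPCAM stayed at or below 0.219 FPKM in every sample.

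Genes whose log2 values followed those of the pair most closely over the 6 samples were ranked among the 8651 protein-coding genes whose mean reached 5 FPKM. The nearest to KRT8 were DCTN1, HOMER3 and IER5L, with root mean square differences of 0.05 to 0.068 on the centred log2 scale. Nearest to KRT18 were RALY, C6orf47 and TIMM17B, with 0.027 to 0.036. The neighbours of KRT8 had log2 fold changes of 1.03 to 1.07 and those of KRT18 of 0.36 to 0.44. These lie near the fold changes of KRT8 and KRT18 by construction, because the ranking used the same 6 samples.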

How the data were processed

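The deposited table holds FPKM for 58174 genes in each of the 6 samples, per the file headers. FastQC, HISAT2 and hg38 are named by the submitters' processing notes; no source used here gives the FPKM tool, its strand setting or the annotation. The 6 single-sample tables equalled the series table. Genes whose mean reached 1 FPKM were tested by limma-trend with robust moderation (limma 3.58.1, R 4.3.3) on log2(FPKM + 0.5), 3 mimic against 3 control samples without covariates, with Benjamini-Hochberg adjustment at 0.05. Fold changes on this scale understate changes of low genes. The fit was tested on simulated data. Exon lengths, transcripts and UTRs came from GENCODE 29, which matched 57836 identifiers.

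The members and the 15 gene lists were chosen with earlier results of these data known. Named genes were the 10 keratins, up to 3 called members of each list with the smallest p (or the most abundant, where none was called), abundant markers, pseudogenes of members at 1 FPKM or more, and the 3 nearest genes of KRT8 and KRT18. Alternatives were pseudocount, filter, scaling, replicate block, moderation and left-out samples.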

Additional observations from a re-analysis of the deposited data

How the results depend on the processing

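KRT8 and KRT19 were called higher in all 18 alternatives, and no tested keratin changed sign in any of them. The counts of the 10 keratins called were 2 higher and 0 lower on the deposited scale. They were 5 higher after median-of-ratios scaling, with or without the replicate number as a block, and 4 higher and 1 lower after quantile normalization or after mitochondrial genes were removed from each total. With no filter, 3 were called lower. Leaving out samples gave 2 to 3 higher and 0 to 1 lower, while the calls over all genes were 1256 to 1822 higher and 4601 to 5732 lower. The fall called without mimic sample 1, or without sample 1 of both groups, was that of KRT17. Of 69 tested genes in the 8 lists around the keratins 15 were called higher and 22 lower, against 27 and 16 after median-of-ratios scaling, 28 and 17 with the block added and 25 and 18 after quantile normalization. Over all 14439 genes the calls were 1735 and 5718, 3889 and 3953, 3990 and 3968, and 3587 and 3286 in the same order. Where a scale changed a call, the cause was not tested. Leaving out sample 1 or sample 3 of both groups, and the block after scaling, were chosen after seeing the data.

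The groups share sample numbers, but the labels do not say that a number pairs samples. Deviations of same-numbered samples correlated at 0.177, -0.047 and 0.223 across genes, and not every sample correlated best with its own number. With the replicate block 4 keratins were called higher and 1 lower by limma, with KRT7 (adjusted p = 0.0104) and KRT18 (0.0426) added to KRT8 and KRT19, and KRT17 (0.0331) lower, and over all genes 2117 and 5994 against 1735 and 5718 without it. For the 6 ratios a paired difference equals the difference of group means by construction. The paired exact p was 0.25, the smallest 3 pairs allow, for 5 ratios and 0.5 for KRT8 to KRT19. Read depth is known only as an implied fragment number, so KRT5, KRT14 and KRT20 rest on few fragments and have no counting interval.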
